A study of Mus musculus with 12 samples.

Results

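The AP-1 family was described through the c-Fos peaks that lay at its own genes. AP-1 is a transcription factor made of paired bZIP proteins, in which a basic region touches DNA and a leucine zipper holds the pair together. Fos proteins cannot bind DNA alone and pair with Jun proteins, whereas Jun proteins can also pair with each other. Many of these genes are switched on within minutes to hours of neuronal firing, and Fos is widely used as a marker of recently active neurons. The genes were 10 named members, all matched by symbol in the RefSeq gene table, of 21523 protein-coding genes used. They were Fos, Fosb, Fosl1 and Fosl2 (the Fos proteins), Jun, Junb and Jund (the Jun proteins), and Atf3, Batf and Batf3, 3 further bZIP proteins that pair with Jun. A peak was linked to a gene when its midpoint lay inside the gene or within 100 kb of either end. By that rule 9 peaks of 3294 were linked to a member.

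All 12 samples came from C57BL/6 mice aged 3 to 4 weeks of the genotype CaMK2a-Cre/+ and LSL-Sun1-GFP/+. This pair of alleles tags the nuclear envelope of neurons that have expressed the Cre, mainly excitatory ones, and tagged nuclei of hippocampal CA1 were sorted, 50000 per reaction. In CUT&RUN, an antibody tethers a nuclease that cuts out the bound DNA for sequencing. The groups were c-Fos and IgG antibody after kainic acid, a glutamate receptor agonist that provokes seizure-like firing, and c-Fos and IgG antibody after phosphate buffered saline (PBS), each with 3 replicates. Tissue was taken after 2 h according to the series description and after 2 to 3 h according to the sample labels. The c-Fos antibody was an in-house polyclonal, and the labels do not say whether it also recognises other Fos proteins. How many animals each replicate held is not given in the labels.

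The values analysed were 1 list of peak positions, named as the replicated peaks of the kainic acid c-Fos samples relative to IgG. It gives no height, no score and nothing for single libraries. Sequencing depth is therefore unknown, and variation between the replicates cannot be stated. Everything below describes positions in that list, with no test, and a gene without a peak is a gene without a listed peak. PBS peaks were not analysed here, so no statement on induction is made. The labelled cell type could not be checked against markers, since peak positions hold no expression values. Positions are 1-based on mm10, and genes and sequences are from RefSeq on GRCm38.p6, the assembly behind mm10.

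Of the 10 members, 6 had a c-Fos peak within 100 kb, namely Fos, Fosl2, Jun, Junb, Atf3 and Batf3. Among all protein-coding genes, 21.8% (4694) had one by the same link. Fos, Jun and Atf3 had 2 peaks each, while 5.59% of protein-coding genes had 2 or more. No listed peak lay within 100 kb of Fosb, Fosl1, Jund or Batf. None of the 9 peaks was centred inside a member or inside any other protein-coding gene. Over all 3294 peaks, 52.2% (1718) were centred inside a protein-coding gene. Members are short, so most of each linked window lies outside the member, and the share around equally short genes was not counted. By direction of transcription, 6 lay upstream of their member and 3 downstream.

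Only at Fosl2 did a peak reach the promoter of a member, among the 9 members with a promoter sequence in the RefSeq table (Fosl1 was not matched). The peak ran over chr5:32134967-32136564 and ended 92 bases past the transcript start. It held the whole promoter window, which covers 250 bases before the start and 50 after it. Of 17274 protein-coding genes with a promoter sequence, 1.21% (209) had a window in which at least 1 base was covered by a peak. One other promoter window lay in a linked peak. It belongs to D730003I15Rik, a long non-coding RNA gene that starts within the nearer of the Atf3 peaks described below, and was named after its position was seen. Both windows are printed because they are the stretches of linked peaks whose sequence was at hand. Both are on the plus strand, 5′ to 3′, and capitals mark an AP-1 match.

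Fosl2 promoter, chr5:32136222-32136521: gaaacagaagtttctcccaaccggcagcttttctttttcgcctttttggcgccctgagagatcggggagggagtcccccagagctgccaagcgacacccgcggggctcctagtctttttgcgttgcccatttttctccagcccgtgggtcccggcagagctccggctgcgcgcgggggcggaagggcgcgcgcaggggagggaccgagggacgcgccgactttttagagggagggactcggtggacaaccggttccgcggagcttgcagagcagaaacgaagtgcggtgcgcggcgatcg

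D730003I15Rik promoter, chr1:191224204-191224503: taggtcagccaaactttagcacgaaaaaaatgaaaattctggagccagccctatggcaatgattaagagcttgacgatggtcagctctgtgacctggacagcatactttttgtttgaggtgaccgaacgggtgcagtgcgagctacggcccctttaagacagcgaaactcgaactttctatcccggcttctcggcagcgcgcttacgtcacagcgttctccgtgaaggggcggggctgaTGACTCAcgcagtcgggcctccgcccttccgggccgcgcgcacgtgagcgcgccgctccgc

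The AP-1 motif was searched as TGANTCA on both strands, and the related cyclic AMP response element (CRE) as TGACGTCA. The D730003I15Rik window holds 1 AP-1 match, TGACTCA, whose first base is at position -11, counted back from the transcript start. The Fosl2 window, with a G+C content of 64.7%, holds neither motif. Only 300 of the 1598 bases of the Fosl2 peak were covered by the window, so the remaining bases were not searched. None of the 9 member promoters held TGANTCA or TGACGTCA. In the 236 promoter windows of protein-coding genes with a base covered by a peak, 16.9% held the AP-1 motif and 9.75% the CRE. In all 21045 such windows, with or without a peak, the shares were 7.04% and 2.26%. The looser CRE-like form TGACNTCA occurred in 1 member promoter, as TGACATCA at position -45 of Jun, whose promoter window no peak reached. This form was found in 8.13% of all the windows.

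**Figure D1:**
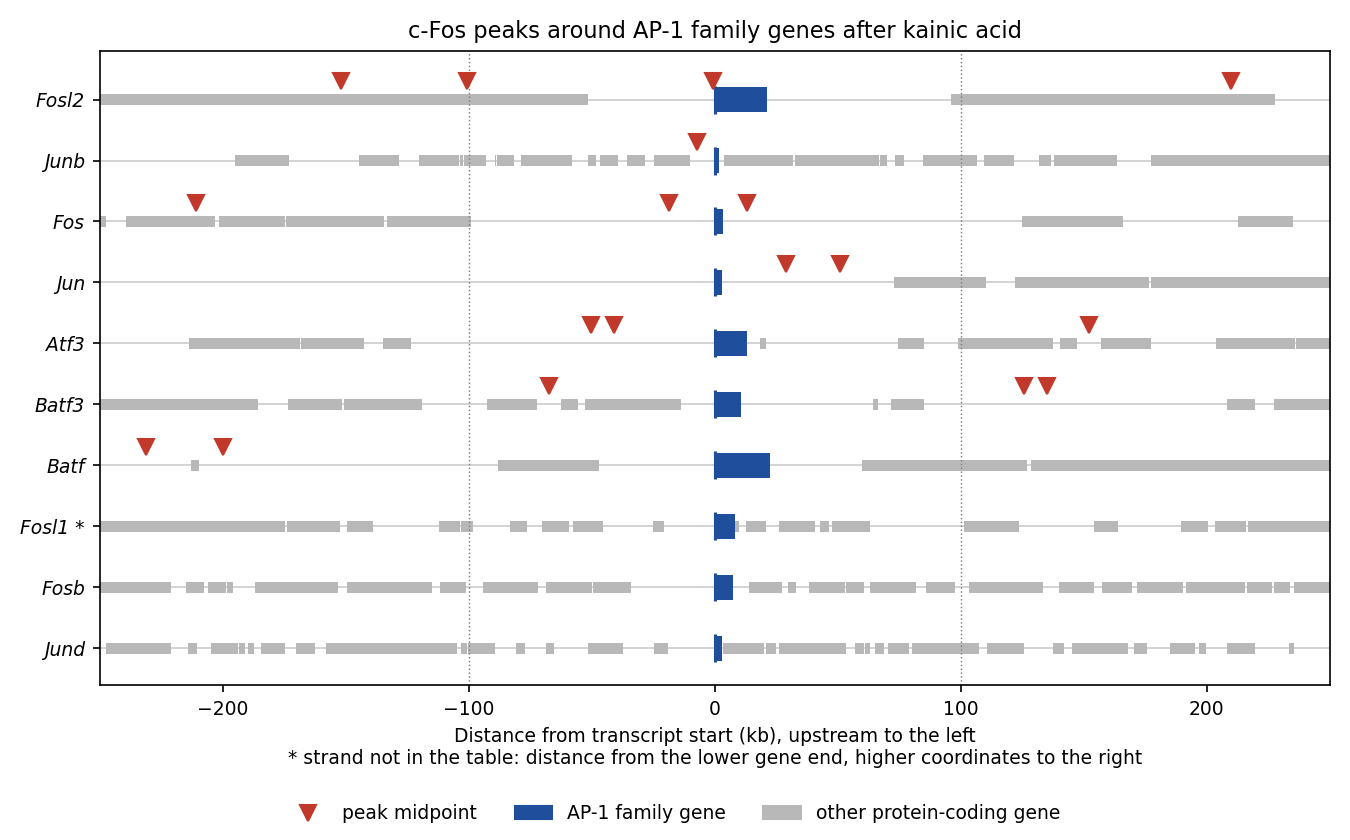
Each row is 1 AP-1 family gene, ordered by its nearest peak, and the horizontal axis is the distance from its transcript start in kb, with upstream to the left. For Fosl1, whose strand was not known here, the distance is from its lower gene end, with higher coordinates to the right. Red triangles are peak midpoints, blue boxes the gene itself, grey boxes other protein-coding genes, and dotted lines stand 100 kb from the start. Fosl2, Junb, Fos, Jun, Atf3 and Batf3 have peaks inside these lines, and Batf, Fosl1, Fosb and Jund have none.

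The map of peaks around the members shows how differently they were placed. Among the Fos genes, Fos encodes the protein that was profiled. It is a short gene of 3385 bp on the plus strand of chromosome 12 (85473890 to 85477274). A peak on each side flanked it. The downstream one, at 85485579 to 85488126, was centred 9.58 kb past the gene end and was 2548 bp wide, wider than 94.5% of all peaks. The upstream one, at 85454612 to 85456364, was centred 18.4 kb before the start, was 1753 bp wide and lay in the non-coding gene Gm38543. Fos was the nearest protein-coding gene to both, and no protein-coding gene lay between them and Fos. The next peak was 211 kb upstream, inside the mismatch repair gene Mlh3. The Fos locus is known for several activity-responsive enhancers around the gene, and whether these peaks coincide with them was not tested.

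Fosl2, which encodes Fra-2, lies on the plus strand of chromosome 5 (32136472 to 32157840). The midpoint of its promoter peak was 707 bp before the start, and the peak was 1598 bp wide. A second peak missed the window narrowly, at 101 kb upstream, and was therefore not counted. It lay inside Babam2, a 387 kb gene of a DNA repair complex that held 6 peaks. With 1 peak inside Plb1 on the other side, 8 peaks lay within 500 kb of Fosl2, more than around any other member. The number of peaks at that distance was not counted over all protein-coding genes.

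Fosb, whose spliced form delta-FosB builds up after repeated stimulation, and Fosl1, which encodes Fra-1, stood apart from these. The nearest peak to Fosb, on chromosome 7 at 19714907 to 19716766, was 406 kb upstream. It was centred 395 bp from Tomm40, a mitochondrial import gene, and at 1860 bp wide it overlapped that gene. Between the peak midpoint and Fosb lay 23 protein-coding genes. The nearest peak to Fosl1, on chromosome 19 at 5821911 to 5824184, was 367 kb away towards higher coordinates, with 21 protein-coding genes between. Of all protein-coding genes, 53.4% had a peak nearer than Fosb did, and 50.6% nearer than Fosl1 did.

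The Jun proteins are the partners that Fos needs in order to bind DNA. Jun, on the minus strand of chromosome 4 (95049036 to 95052222), had 2 peaks, both past its 3′ end. The nearer, at 95022389 to 95024358, was centred 25.7 kb from the gene and was 1970 bp wide. Jun was its nearest protein-coding gene. The farther, at 95000898 to 95002029, was 47.6 kb from Jun and 1132 bp wide. It lay within the non-coding gene Gm12694 and was nearer to Mysm1, a histone deubiquitinase gene, at 22.3 kb. Nothing was listed upstream of Jun until 315 kb.

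Junb, at 1840 bp the shortest member, is on the minus strand of chromosome 8 (84976909 to 84978748). Its single peak, at 84984720 to 84986927, was 7.08 kb upstream and 2208 bp wide, wider than 90.1% of all peaks. The nearest protein-coding gene to this peak was not Junb but Hook2, which encodes a microtubule adaptor, at 2.95 kb. The position alone does not say which gene such a peak belongs to. The next peak was 475 kb away, inside the calcium channel gene Cacna1a. Jund, the Jun gene that most tissues express steadily, lies on the same chromosome (70697739 to 70700616). It had no peak within 500 kb. Its nearest, 671 kb downstream, was centred 179 bp from Ocel1 and, at 1057 bp wide, overlapped that gene. Of protein-coding genes, 69.2% had a peak nearer than Jund did.

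Atf3, a stress- and injury-induced bZIP gene, is on the minus strand of chromosome 1 (191170296 to 191183333). Its 2 peaks were both upstream, at 40.8 kb (191222924 to 191225294, 2371 bp wide) and at 50.1 kb (191232724 to 191234170, 1447 bp wide). The gap between their facing edges was 7.43 kb, smaller than that between the peaks at Fos (29.2 kb) or Jun (20.4 kb). Atf3 was the nearest protein-coding gene to both. The nearer peak spans the start of the non-coding gene D730003I15Rik, whose promoter is printed above.

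Batf3 and Batf encode small AP-1 proteins known mainly from immune cells. Batf3 (191098414 to 191108943, plus strand) lies 61.4 kb from Atf3. Its single peak, at 191030857 to 191031734, was 67.1 kb upstream and, at 878 bp, the narrowest of the 9. It was nearest to Spata45, at 4.61 kb, and 3 protein-coding genes lay between it and Batf3. The Atf3 peaks were 115 and 125 kb from Batf3 and so fell outside its window. Batf (chromosome 12, 85686720 to 85709087, plus strand) lies 209 kb from Fos, and Jdp2, another bZIP gene, lies between them. Its nearest peak, 200 kb upstream, was the downstream peak of Fos.

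**Figure D2:**
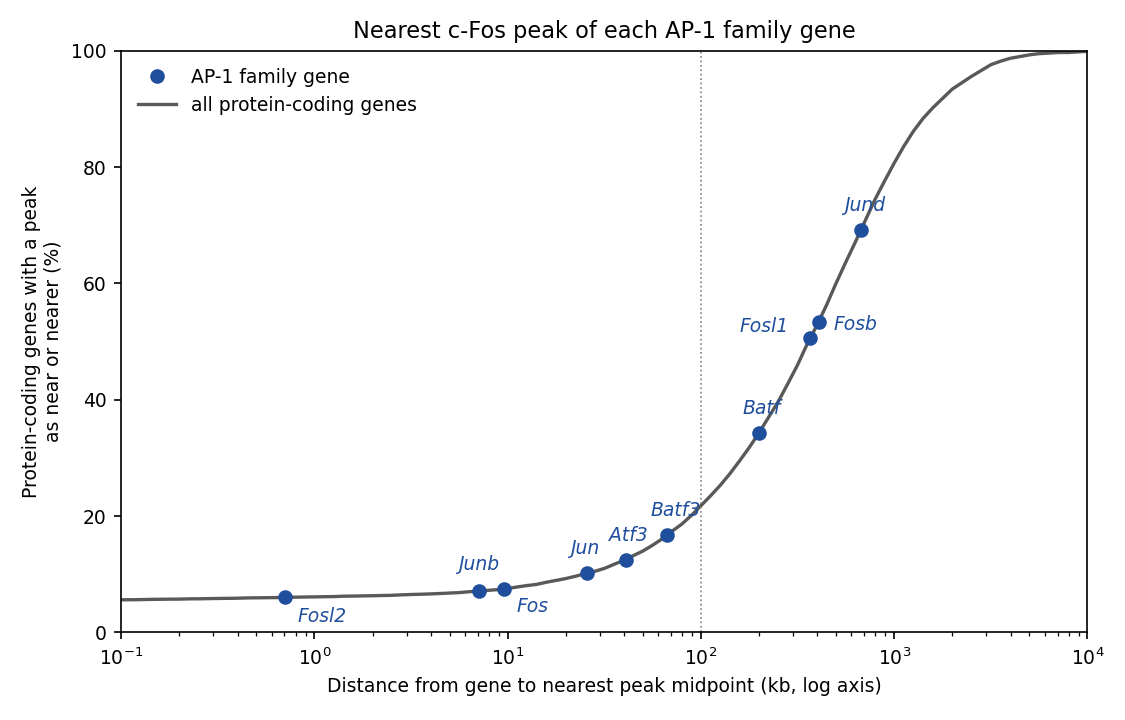
Blue points give the distance from each AP-1 family gene to its nearest peak midpoint (horizontal, kb, log axis), placed on the curve for all protein-coding genes (vertical, percent with a peak as near or nearer). The dotted line is at 100 kb. Fosl2 and Junb are lowest, at 6.03% and 7.10%, and Jund is highest, at 69.2%.

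Ordered by distance to the nearest peak, the members ran Fosl2, Junb, Fos, Jun, Atf3, Batf3, Batf, Fosl1, Fosb and Jund. The share of all protein-coding genes with a nearer peak was 6.03% for Fosl2, 7.10% for Junb, 7.46% for Fos, 10.2% for Jun, 12.5% for Atf3 and 16.8% for Batf3. For Batf it was 34.3%. Fosl2, Junb and Fos thus stood at nearly the same place among all genes, while Batf, Fosl1, Fosb and Jund were spread over the middle of the range and above. The median distance was 53.9 kb over the 10 members and 360 kb over all protein-coding genes. The farthest linked peak was that of Batf3 at 67.1 kb, and just outside the 100 kb limit stood the Babam2 peak at 101 kb from Fosl2.

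The share of genes with a peak varied with gene length and with how crowded the locus was. Members were short, from 1840 to 22368 bp, and among the protein-coding genes no longer than 22368 bp, 16.5% had a peak within 100 kb. The median protein-coding gene had 4 other protein-coding genes within 100 kb. Of the 5 members with at most that number, 4 had a peak (Fos, Jun, Fosl2 and Atf3, with 1 to 3 neighbours) and Batf, with 2, had none. The share among all such genes was 25.5%. Of the 5 members in more crowded loci, Junb (17 neighbours) and Batf3 (6) had a peak, whereas Fosb (12), Jund (13) and Fosl1 (16) had none. The share among all such genes was 18%. Counting for each peak only the nearest protein-coding gene, 4 members remained (Fos, Fosl2, Jun and Atf3, with 6 peaks), against 8.51% of protein-coding genes.

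**Figure D3:**
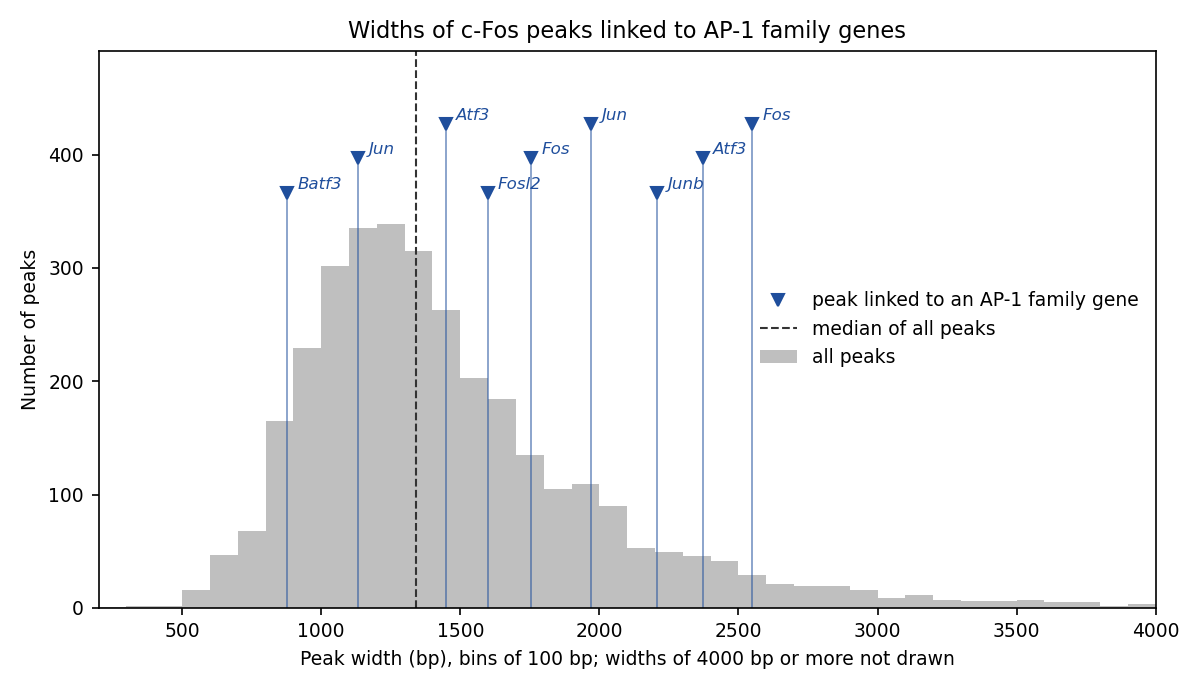
Widths of the 9 peaks linked to AP-1 family genes (blue triangles, labelled by gene) over a histogram of all peaks (grey, number of peaks per 100 bp of width). The dashed line is the median of all peaks, 1341.5 bp, and 7 of the 9 peaks lie to its right.

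Widths of the 9 peaks ranged from 878 to 2548 bp with a median of 1753 bp, as the plot of widths shows. All 3294 peaks had a median of 1341.5 bp and quartiles of 1097 and 1698.75 bp. Of the 9 peaks, 7 were wider than the overall median and 5 were wider than the upper quartile. These 5 were both Fos peaks, the Junb peak, the nearer Jun peak and the nearer Atf3 peak. At Jun, Atf3 and Fos alike, the peak nearer to the gene was the wider of the pair. Of the 3 peaks nearer to another protein-coding gene than to the member, those at Batf3 and in Gm12694 near Jun were the narrowest of the 9, while the Junb peak was among the widest. Width is not a measure of binding strength, and its relation to occupancy was not tested.

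**Figure D4:**
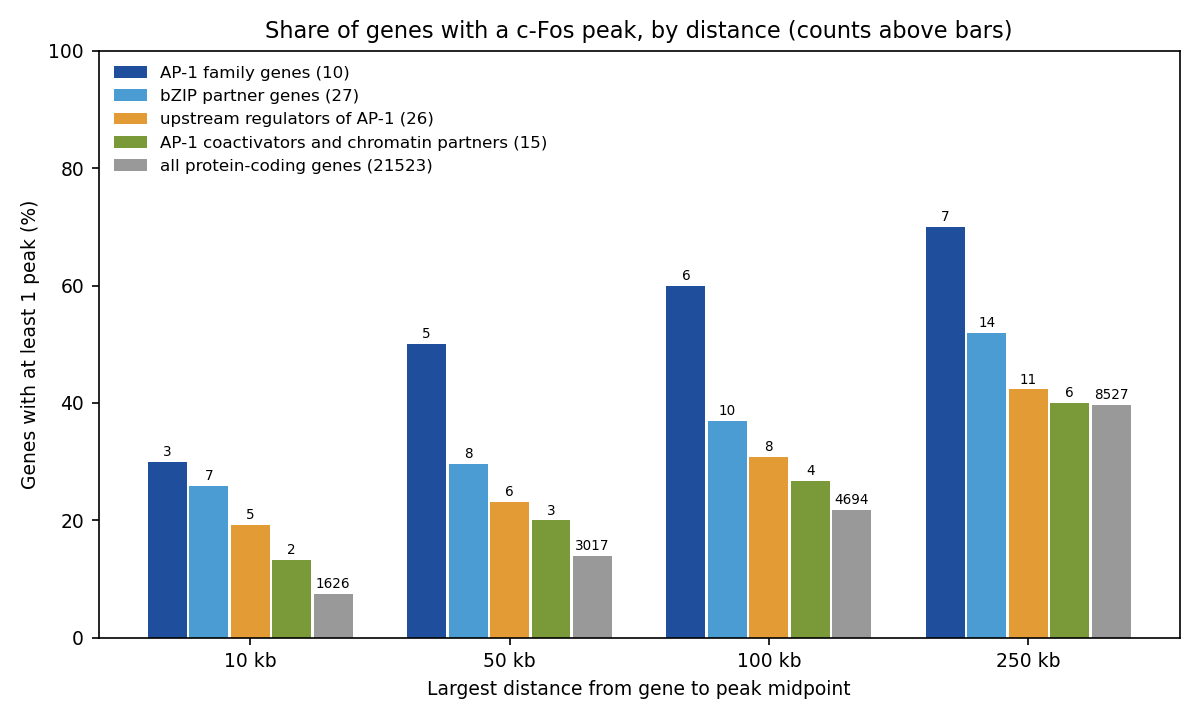
Bars give the percent of genes in each list with at least 1 peak within 10, 50, 100 or 250 kb, with the number of genes above each bar and the list size in the legend. AP-1 family genes stand highest at each distance, at 30, 50, 60 and 70%, and all protein-coding genes lowest, at 7.55, 14, 21.8 and 39.6%. Some gaps are small: 3 of 10 beside 7 of 27 bZIP genes (25.9%) at 10 kb, and 40% of coactivator genes beside 39.6% at 250 kb. Members and lists were chosen with earlier results known, and the order was not tested.

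Other genes of the pathway were counted by the same link in 3 lists. The first held 27 further bZIP genes, listed as possible partners of AP-1 proteins, though pairing was not checked for each. Of these, 10 had a peak within 100 kb (37%), beside 21.8% of all protein-coding genes. The other 17 had none, and the median distance over the list was 184 kb. The first 5 by distance each had a peak centred inside the gene. They were Maff (0.81 kb from a gene end) and Mafk (5.19 kb), small Maf proteins without an activation domain, Atf1 (9.42 kb), a CREB relative, Atf6 (28.3 kb), a sensor of endoplasmic reticulum stress, and Bach2 (167 kb), a repressor. Bach2 had 3 peaks in its window and Atf6 had 2.

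Of 26 genes acting upstream of AP-1, 8 had a peak (30.8%), beside 21.8% of all protein-coding genes. Their median distance was 350 kb, close to the 360 kb of all protein-coding genes. Peaks lay inside Map2k4, a kinase that activates the Jun kinases, Mef2c, an activity-dependent transcription factor, Mrtfb, a coactivator of serum response factor, and Rps6ka5, a kinase of histones and CREB. Dusp1, a phosphatase that switches off MAP kinases, had a peak centred 336 bp upstream. This peak was 1351 bp wide and so reached into the gene. Of 15 coactivator and chromatin genes, 4 had a peak (26.7%, beside the same 21.8%). They were Arid1b, a subunit of the BAF remodelling complex, with the peak inside the gene, Smarcd1, another BAF subunit, at 1.82 kb, Ncor1, a corepressor, at 34.4 kb and Crebbp, a histone acetyltransferase, at 77.2 kb. These lists hold longer genes than the AP-1 family, with median lengths of 12.5, 63.9 and 88.1 kb beside 7.83 kb. Over all protein-coding genes the median length was 17.4 kb. The lists were not compared by a test.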

How the data were processed

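CUT&RUN was run by the authors on sorted CA1 nuclei in 4 groups of 3. The deposited file analysed here is a headerless list of 3295 peaks with chromosome, start and end, attached to 1 c-Fos sample after kainic acid and treated as a list of that group. The submitters' processing notes name Trimmomatic 0.36, Bowtie2 2.2.9, bedtools 2.27.1 and SEACR 1.1 with mm10 and sacCer3. Their settings and thresholds, and how replicates were combined, are not stated in these sources, and weaker peaks may be missing from every count.

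Of these peaks, 3294 on 20 chromosomes were used, and 1 on an unplaced sequence was not. Genes starting below 3000000 (340, of them 108 protein-coding) were left out because their coordinates appear to refer to unplaced scaffolds. Distance ran from the peak midpoint to the nearer gene end (0 inside). Strand and transcript starts came from the RefSeq promoter table. The link was tested on simulated peaks. Python 3.11.15, pandas 2.3.3 and numpy 2.4.6 were used.

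The members and lists were chosen with earlier results of these data known, so no list was tested. All 10 members are named. Of each other list, up to 5 genes with the nearest peaks are named, and non-coding and neighbouring genes beyond each peak's nearest gene were named after seeing their positions. The planned comparison of bZIP protein sequences was not run, since protein sequences were not used here.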

Additional observations from a re-analysis of the deposited data

How the results depend on the processing

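No paired analysis was possible because the list holds no values per replicate, so no replicate could be left out either. Counts were repeated with the 1647 wider peaks, with neighbours within 500 bp merged, with windows of 10, 50 and 250 kb, with any overlapping base, and with the nearest gene only. Within 10 kb, 3 of 10 members (Fos, Fosl2 and Junb, 3 peaks), 5 of 26 upstream genes and 2 of 15 coactivator genes had a peak. These are by construction fewer, and the share of all protein-coding genes was 7.55%. Among the wider peaks, 5 of 26 upstream genes had one, and the share over all genes was not counted. With the nearest gene only, 1 of 15 coactivator genes had one, beside 8.51% of protein-coding genes. The CRE-like motif occurred in 1 member promoter, the AP-1 motif in 0. Of the 46 recomputed counts, shares and medians, the other 39 stayed within 1.5 times the reported value, with 4 to 7 members having a peak. Merging and the any-base rule changed no count of genes or linked peaks. The 46 also include background shares over other sets of genes, so many of them were weak checks. Of 30 recomputed member distances, 28 stayed within 1.5 times the reported value. The exceptions were Batf3 (115 kb with the wider peaks, which lack its own) and Fosl2 (0 from the peak's edge). Merging left every member distance unchanged, and the edge can shift a distance by only part of a peak's width. Most of these distances could therefore hardly move. Within 100 kb of the transcript start, 6 of the 9 members with a promoter sequence had a peak, beside 18.3% of 17274 protein-coding genes. This count and the shares by gene length and crowding were added after seeing the data. Read depth is unknown, so peaks below the threshold cannot be told from absent ones.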

Other observations

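The 2 peaks nearest to Fosl1 lay at either end of a non-coding gene. Neat1, which encodes the long non-coding RNA that organises nuclear paraspeckles, occupies 5824708 to 5845480 on chromosome 19. A peak of 2274 bp ended 524 bp before its lower end and a peak of 2056 bp began 11 bp past its upper end. Neat1 was named after its position was seen.

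Of the 9 linked peaks, 3 overlapped a long non-coding RNA gene by at least 1 base, namely Gm38543 at Fos, Gm12694 at Jun and D730003I15Rik at Atf3. Of all 3294 peaks, 410 (12.4%) overlapped such a gene. All peaks include the 52.2% centred inside a protein-coding gene, where none of the 9 lay. The share among peaks outside protein-coding genes was not counted. The overlap was counted after the positions were seen and was not tested. Among the peaks beyond 100 kb, the nearest to Fosb overlapped Gm38955, and 2 within 500 kb of Fosl2 overlapped Gm52770 and Gm36840.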
